A study of Mus musculus with 21 samples.

Results

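The 10 genes described here encode the stress transcription factor HSF1 (Hsf1), the HSP70 chaperones Hspa1a, Hspa1b and Hspa8, and their partners Dnajb1 and Hsph1. They also include the HSP90 chaperones Hsp90aa1 and Hsp90ab1, the small heat shock protein Hspb1 and the mitochondrial chaperonin Hspd1. They were chosen by symbol, and all 10 were found among the 20900 genes of the table of log2 expression values. All 10 were also among the 14666 genes tested, which had a log2 value above 0 in at least 3 of the 21 libraries. RNA-seq libraries were made from poly(A) RNA of E14 cells, embryonic stem cells from a 129 strain mouse that were grown with serum and leukaemia inhibitory factor. The medium was replaced by one with 1 µM BMH-21 or 1 µM CX-5461, inhibitors of RNA polymerase I, which makes ribosomal RNA precursors. Cells were harvested at 0 h as the shared control and after 2, 4 and 8 h of each inhibitor, 3 replicates in each of 7 groups. The controls were at 0 h, so the effects of an inhibitor and of time in fresh medium cannot be told apart.

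Heat shock proteins are molecular chaperones that help other proteins fold, and many of their genes are transcribed more when unfolded proteins accumulate. In resting cells HSF1 is held inactive by chaperones. On stress it forms trimers that bind heat shock elements, inverted repeats of the bases nGAAn upstream of its target genes. HSP70 proteins bind exposed stretches of unfolded proteins, J-domain proteins such as the Dnajb1 product deliver these and stimulate the ATPase of HSP70, and HSP110 proteins such as the Hsph1 product exchange the bound nucleotide. HSP90 proteins act later, on proteins such as kinases and steroid receptors. Embryonic stem cells are known to express the constitutive chaperones at high levels.

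The log2 values are the authors' log2 of reads plus 0.5 over a scaled library size, and the libraries held 46604397 to 62812641 reads. Replicates differed by more than sampling noise in every pair. The labels do not say whether replicates came from separate cultures, so p-values refer only to the spread between these samples. limma draws the spread of each gene toward a trend over all genes. The weight of that trend was 111.5 degrees of freedom as deposited and 8.53 after centring, against 14 from the gene itself. As deposited the p-values thus rest mostly on a spread shared by all genes. Subtracting each library's median over the genes tested (centring) took a common shift of -0.08, -0.15 and -0.21 out of the log2 fold changes of BMH-21 at 2, 4 and 8 h, and of -0.15, -0.16 and 0.22 out of those of CX-5461. Changes are given as deposited and, where it matters, after centring. The shift is the change in library medians and not the median of the fold changes. At 8 h in BMH-21 the median log2 fold change over all genes tested was -0.40 as deposited and -0.19 after centring. The summed linear level of 10 embryonic stem cell markers, all tested, was 6309 to 7190 in control. It was 3646 to 4254 after 4 h and 2977 to 3182 after 8 h in BMH-21. In CX-5461 it was 3682 to 4399 after 4 h and 5656 to 6074 after 8 h. All 10 markers were lower than control at 4 h of each inhibitor as deposited, with a median log2 fold change of -0.86 in BMH-21 and -0.81 in CX-5461. Of 7 fibroblast markers 3 were tested, with a summed level of 30.4 to 34.8 in control and at most 53.3 in any library. Of 6 endoderm markers 4 were tested, at 9.92 to 16.5. No gene of these lists was at 0 in every library of a group. The part of these markers in the results below was not tested, and fewer cells with a transcript cannot be told apart from less of it per cell.

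The chaperone genes divided in direction. Hspa1a, Hspa1b and Dnajb1 rose with both inhibitors at 2, 4 and 8 h, from 1.27-fold for Dnajb1 at 2 h in CX-5461 to 5.47-fold for Hspa1a at 4 h in BMH-21. None of the other 7 genes passed the test for a rise against control as deposited. All 7 were lower after 8 h in BMH-21 as deposited, from 0.756 of control for Hspb1 to 0.351 for Hspa8. Quantile normalization turned the sign for Hsp90aa1, Hsp90ab1 and Hspb1. That method works on ranks, and a gene that keeps its rank keeps its value. Hsp90aa1 ranked 5 of 14666 in control and 4 to 5 after 8 h in BMH-21, and Hsp90ab1 2 to 4 and then 2. The log2 fold change of Hspb1, -0.40, equalled the median over all genes tested, -0.40, and was -0.05 without a call with median-ratio factors. The tests were limma's, two-sided, with Benjamini-Hochberg adjustment over the 14666 genes and a threshold of 0.05.

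After 2 h in BMH-21, 3 of the 10 genes were higher than control and 0 lower, where 8.48% of all genes tested were called higher and 11.2% lower. At an unadjusted p under 0.05 limma gave 1 lower gene, Hspa8, and after centring or with median-ratio factors Hspa8 and Hsph1 were called lower, where 17.5% and 16.5% of all genes were. After 4 h in BMH-21, 3 were higher and 5 lower, against 22.1% and 44.9% of all genes. At 8 h the counts were 3 and 7, against 24.5% and 56.9%. CX-5461 gave 3 higher and 2 lower at 2 h, against 7.45% and 20.5% of all genes. At 4 h it gave 3 higher and 7 lower, against 19.8% and 51.2%, and at 8 h 3 and 3, against 35.1% and 14.3%. Centring brought the lower count to 4 at 4 h in BMH-21, 5 at 4 h in CX-5461 and 7 at 8 h in CX-5461, where 41.5%, 45.7% and 44.7% of all genes were lower. At 8 h in BMH-21 the lower count stayed at 7, against 51.3%. The share of genes called was large at 4 and 8 h, so a call alone does not set a gene apart there. The 6 comparisons share the control libraries.

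**Figure D1:**
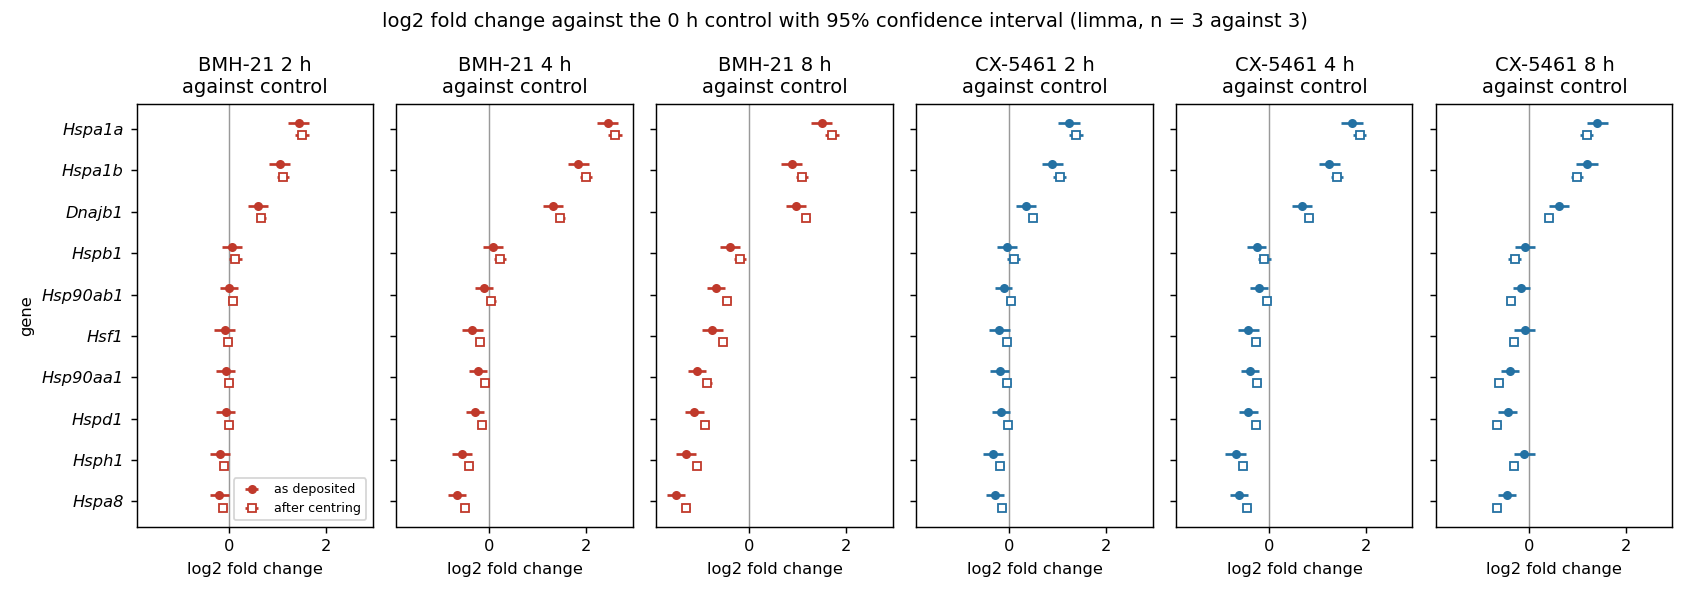
Log2 fold change of the 10 genes against the 0 h control (horizontal axis) for each inhibitor and time, with 95% confidence intervals from limma (n = 3 against 3). Filled circles are values as deposited and open squares values after centring; Hspa1a, Hspa1b and Dnajb1 lie to the right of 0 in all 6 panels, and as deposited each of the other 7 genes lies farthest to the left after 8 h in BMH-21.

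Promoter sequences are shown for the genes that rose, because they moved together, and for genes that fell and held the inverted repeats searched for below. Whether HSF1 binds these matches was not tested. RefSeq promoters on GRCm38.p6, the mouse build that the submitters' processing notes call mm10, were matched for 6 of the 10 genes, with 9 start sites in all. Each window was the 250 bases before the start. It was searched for pairs of inverted repeats, GAANNTTC or TTCNNGAA, and for triples, GAANNTTCNNGAA or TTCNNGAANNTTC. Each pair reads the same on both strands, a triple holds 2 overlapping pairs, and neighbouring matches can share bases. Capitals mark the pairs. Of the 9 windows 6 held a pair and 1 held triples. A pair was found in 12.8% and a triple in 0.466% of all 32851 RefSeq promoters, searched in the same way. The Hspa1a window is chr17:34972157-34972406 and the Hspa1b window chr17:34959239-34959488, both on the minus strand. The Dnajb1 window is chr8:83607925-83608174 on the plus strand, next to its upstream start. The Hspb1 window is chr5:135887669-135887918 on the plus strand.
Hspa1a: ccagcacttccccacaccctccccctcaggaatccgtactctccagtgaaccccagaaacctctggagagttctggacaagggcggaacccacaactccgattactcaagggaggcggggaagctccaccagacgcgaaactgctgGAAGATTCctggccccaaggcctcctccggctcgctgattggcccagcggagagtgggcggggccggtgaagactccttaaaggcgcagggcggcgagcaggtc
Hspa1b: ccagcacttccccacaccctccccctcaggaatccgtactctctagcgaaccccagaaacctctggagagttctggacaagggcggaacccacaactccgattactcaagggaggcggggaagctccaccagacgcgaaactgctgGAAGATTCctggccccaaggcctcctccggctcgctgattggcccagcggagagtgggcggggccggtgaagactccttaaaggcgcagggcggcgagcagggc
Dnajb1: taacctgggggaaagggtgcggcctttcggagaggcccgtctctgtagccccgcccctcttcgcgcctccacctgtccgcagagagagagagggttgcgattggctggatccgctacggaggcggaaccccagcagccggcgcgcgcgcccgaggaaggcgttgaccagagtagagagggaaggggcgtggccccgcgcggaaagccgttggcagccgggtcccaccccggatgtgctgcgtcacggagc
Hspb1: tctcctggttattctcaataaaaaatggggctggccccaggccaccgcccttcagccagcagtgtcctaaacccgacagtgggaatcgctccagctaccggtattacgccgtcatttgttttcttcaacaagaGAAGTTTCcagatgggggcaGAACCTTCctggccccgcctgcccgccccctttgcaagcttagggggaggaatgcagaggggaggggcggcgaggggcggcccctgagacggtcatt

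The Hspa1a and Hspa1b windows differed at 3 of 250 positions, and each held 1 pair, 104 to 97 bases before the start. Neither Dnajb1 window held these letters, which says nothing of more distant or less exact elements. The Hspb1 window held 2 pairs, 117 to 110 and 97 to 90 bases before the start. In Hspd1 the window of the start inside the annotated gene held 3 overlapping pairs that form 2 triples, 144 to 127 bases before that start. The other Hspd1 window, next to the annotated gene start, held 0 pairs and 0 triples. In Hsph1 both windows, which overlap, held the same pair. The 30 bases around these sites, on the minus strand, are chr1:55088053-55088082 for Hspd1 and chr5:149636351-149636380 for Hsph1.
Hspd1 site: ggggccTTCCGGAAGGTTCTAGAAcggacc
Hsph1 site: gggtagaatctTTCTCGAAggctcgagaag

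Pairs of these letters thus stood before Hspa1a and Hspa1b, which rose. They also stood before Hsph1, Hspb1 and the inner start of Hspd1, genes that were lower after 8 h in BMH-21 as deposited. Promoters of Hsf1, Hspa8, Hsp90aa1 and Hsp90ab1 were not used here.

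Hspa1a and Hspa1b are neighbouring single-exon genes on chromosome 17 (GRCm38, chr17:34969190-34972156 and chr17:34956436-34959238, minus strand) for nearly the same stress-inducible HSP70. Per kilobase Hspa1a had the lowest control level of the 10 genes, by the deposited split of reads between it and Hspa1b. Its log2 values in the 3 control libraries were 3.69, 3.64 and 3.77, from 565 to 644 reads. They were 5.13, 5.18 and 5.07 after 2 h in BMH-21, 6.25, 6.08 and 6.12 after 4 h, and 5.18, 5.03 and 5.38 after 8 h. All 9 BMH-21 libraries lay above every control, and the 4 h libraries lay above those of 2 h and 8 h. With CX-5461 the values were 5.13, 4.76 and 4.91 at 2 h, 5.36, 5.54 and 5.34 at 4 h, and 5.13, 5.08 and 5.10 at 8 h. The CX-5461 libraries also lay above every control, and those of 4 h were the highest. The log2 fold changes of Hspa1a were 1.43, 2.45 and 1.49 at 2, 4 and 8 h in BMH-21 and 1.23, 1.71 and 1.40 under CX-5461, each ± 0.11 (SE), with a largest limma adjusted p of 1.4e-18.

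Hspa1b also rose at every time with each inhibitor. Its control log2 values were 4.17, 4.11 and 4.10. BMH-21 gave 5.09, 5.24 and 5.17 at 2 h, 6.03, 5.93 and 5.95 at 4 h, and 5.05, 4.77 and 5.20 at 8 h. CX-5461 gave 5.23, 4.86 and 4.97, then 5.28, 5.47 and 5.36, then 5.26, 5.30 and 5.41. Every treated library was above every control, and under CX-5461 the 4 h and 8 h libraries overlapped. Log2 fold changes of Hspa1b were 1.04, 1.84 and 0.88 in BMH-21 and 0.89, 1.24 and 1.20 in CX-5461 (SE 0.11), with a largest limma adjusted p of 2.7e-11.

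The reads of Hspa1a and Hspa1b cannot be separated with certainty. Of the 50-base windows of the longest coding transcript, 60.3% of those of Hspa1a and 62.3% of those of Hspa1b also occur in another gene's transcript, in nearly all cases the other of the pair. Read length and the treatment of reads with several matches are not given in the sources used here, and Hspa1a overlaps Gm20481 on the other strand. The summed reads of both genes, 1352 to 1455 per control library, avoid the split between them. The summed log2 value was 4.93 ± 0.03 in control (SD, n = 3). It was 6.15 ± 0.05, 7.06 ± 0.07 and 6.10 ± 0.19 after 2, 4 and 8 h in BMH-21 (SD, n = 3). The CX-5461 groups had 5.98 ± 0.19, 6.39 ± 0.10 and 6.22 ± 0.04 (SD, n = 3). The sum was above control in all 18 treated libraries. Hspa1a made up 41.8% to 44.3% of the summed reads in control and a larger share in every treated library. The share was 48.3% to 50.8%, 52.6% to 53.8% and 52.2% to 54.5% at 2, 4 and 8 h in BMH-21, and 48.2% to 49.0%, 49.6% to 51.4% and 44.7% to 47.7% under CX-5461.

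**Figure D2:**
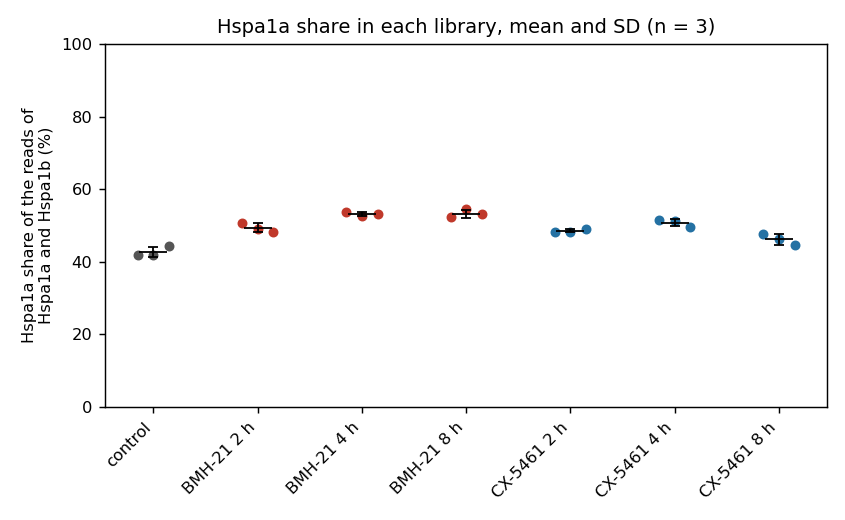
Share of Hspa1a in the summed reads of Hspa1a and Hspa1b (vertical axis, %) in each of the 21 libraries, with the mean and SD of each group (n = 3). The control libraries lie at 41.8% to 44.3%, below every treated library, and the 8 h libraries of BMH-21 lie at 52.2% to 54.5%.

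Dnajb1 (GRCm38, chr8:83608193-83612653, plus strand) encodes the J-domain partner of inducible HSP70. Its control log2 values were 6.32, 6.33 and 6.17, from 3406 to 3743 reads. BMH-21 gave 6.80, 6.92 and 6.86 at 2 h, 7.79, 7.47 and 7.51 at 4 h, and 7.24, 7.10 and 7.35 at 8 h. CX-5461 gave 6.82, 6.49 and 6.55, then 6.86, 7.05 and 6.91, then 6.86, 6.91 and 6.90. All 18 treated libraries were above every control, with a smaller distance for CX-5461 than for BMH-21 at 4 h and 8 h. Log2 fold changes of Dnajb1 were 0.59, 1.32 and 0.96 in BMH-21 and 0.35, 0.67 and 0.62 in CX-5461 (SE 0.11). The largest limma adjusted p was 0.0086, for 2 h in CX-5461. That call was lost without CX-5461 2 h replicate 1, where the change was 0.25 and the limma adjusted p 0.062. Almost none of its 50-base windows (0.407%) occur in another gene.

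The 3 genes passed the test in 18 of 18 comparisons with control, and in 18 of 18 their treated libraries lay above every control. They were set apart from the other members because they rose, so this tally is a description and not a further test. The comparisons share the controls and Hspa1a and Hspa1b share reads, so these are not 18 separate results. Across all genes tested, this absence of overlap above control was found for 11.0%, 22.8% and 24.1% at 2, 4 and 8 h in BMH-21 and 8.71%, 20.8% and 42.8% under CX-5461. All 18 calls were also made after centring, with median-ratio factors and with quantile normalization. After centring 18.6%, 32.2% and 33.3% of all genes were higher at 2, 4 and 8 h in BMH-21, and 15.8%, 28.5% and 29.3% in CX-5461.

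**Figure D3:**
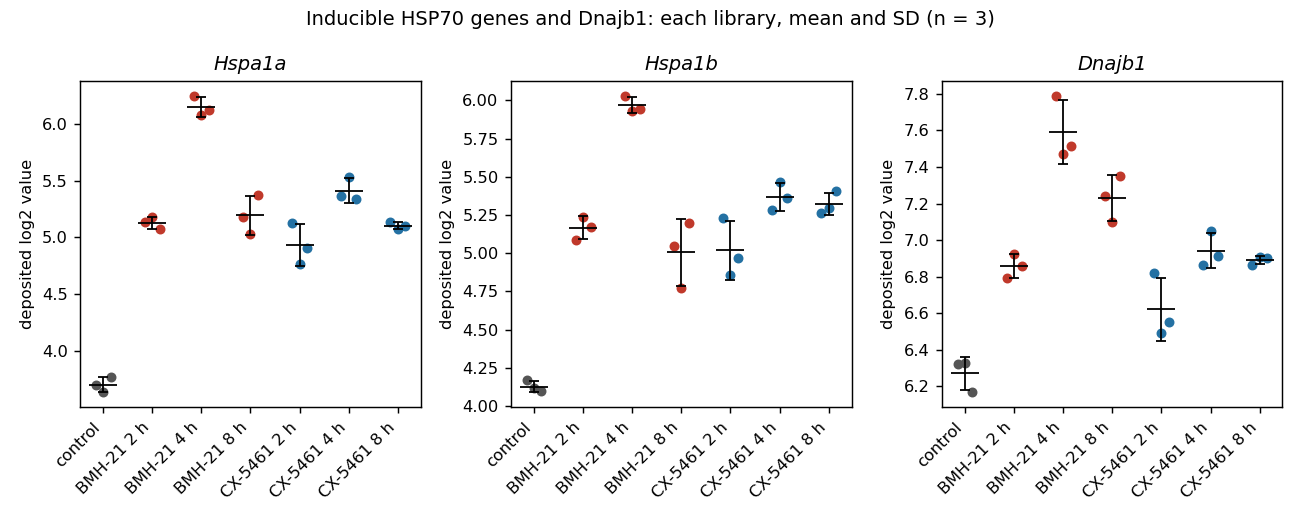
Deposited log2 values of Hspa1a, Hspa1b and Dnajb1 in each library (points) with the mean and SD of each group (n = 3); the vertical axes do not start at 0. All treated libraries lie above the 3 controls, and the highest group of each gene is 4 h in BMH-21.

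Hspa8 (GRCm38, chr9:40800984-40810087, plus strand), the constitutive cytosolic HSP70, fell with both inhibitors, farthest under BMH-21 at 8 h. Its log2 values were 12.89, 12.90 and 12.70 in control. They were 12.51, 12.74 and 12.62 after 2 h in BMH-21, 12.31, 12.10 and 12.10 after 4 h, and 11.41, 11.19 and 11.36 after 8 h. The 2 h libraries overlapped the controls, and those of 4 h and 8 h did not. With CX-5461 the values were 12.69, 12.44 and 12.49, then 12.08, 12.37 and 12.17, then 12.40, 12.38 and 12.34, all below the lowest control. On the log2 scale Hspa8 differed from control by -0.20, -0.66 and -1.51 at 2, 4 and 8 h in BMH-21 (limma adjusted p 0.12, 6.7e-10 and 7.3e-31). CX-5461 gave -0.29, -0.62 and -0.46 (limma adjusted p 0.014, 6.1e-09 and 1.8e-05). The 2 h call of CX-5461 was lost in 4 of 6 fits that left out 1 library (CX-5461 2 h replicate 2 or 3, or control replicate 1 or 2) and with quantile normalization (-0.10). That method works on ranks, and Hspa8 ranked 3 to 4 in control and 4 after 2 h in CX-5461. After centring both 2 h changes passed the test, at -0.13 and -0.15. Hspa8 contains 3 Snord14 genes, and 73.2% of its 50-base windows occur elsewhere, mostly in the pseudogene Gm15459.

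Hsph1 (GRCm38, chr5:149614287-149636376, minus strand), the HSP110 exchange factor, had log2 values of 8.57, 8.59 and 8.41 in control and fell with both inhibitors at 4 h. BMH-21 gave 8.17, 8.45 and 8.37, then 8.16, 7.87 and 7.84, then 7.31, 7.03 and 7.33. CX-5461 gave 8.30, 8.07 and 8.18, then 7.65, 8.00 and 7.82, then 8.44, 8.42 and 8.41. The 8 h libraries of BMH-21 were the lowest, while those of CX-5461 were back among the controls as deposited. Log2 fold changes of Hsph1 at 2, 4 and 8 h were -0.19, -0.56 and -1.30 in BMH-21 (limma adjusted p 0.22, 1.3e-06 and 1.6e-22). In CX-5461 they were -0.34, -0.70 and -0.10 (limma adjusted p 0.01, 5e-09 and 0.46). At 8 h in CX-5461 the change was -0.31 after centring (limma adjusted p 7.7e-08) and 0.09 with quantile normalization (limma adjusted p 0.04), so its direction depended on the scaling. The 2 h call of CX-5461 was lost in 3 of 6 fits that left out 1 library (CX-5461 2 h replicate 2, or control replicate 1 or 2). None of its windows was shared.

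The HSP90 genes Hsp90ab1, the constitutive form, and Hsp90aa1, the inducible form, were among the most abundant transcripts, and with Hspa8 they ranked between 2 and 9 of 14666 genes in every library by value, not per length. Hsp90aa1 (GRCm38, chr12:110690605-110702728, minus strand) had log2 values of 12.59, 12.68 and 12.42 in control. They were 12.38, 12.60 and 12.47, then 12.45, 12.30 and 12.24, then 11.55, 11.40 and 11.51 after 2, 4 and 8 h in BMH-21. The values under CX-5461 were 12.52, 12.24 and 12.33, then 12.03, 12.34 and 12.11, then 12.22, 12.13 and 12.13. Only after 4 h and 8 h in CX-5461 and 8 h in BMH-21 did no library overlap the controls. Its differences from control in BMH-21 were -0.08, -0.23 and -1.08 on the log2 scale (limma adjusted p 0.64, 0.025 and 3.3e-20). The call at 4 h in BMH-21 was lost after centring (-0.08, limma adjusted p 0.076). It was also lost in 4 of 6 fits that left out 1 library, BMH-21 4 h replicate 2 or 3 or control replicate 1 or 2. CX-5461 gave -0.20, -0.40 and -0.40 (limma adjusted p 0.095, 9.5e-05 and 0.00015). Quantile normalization left no call at 4 h and 8 h in CX-5461, at -0.06 and -0.12. Hsp90aa1 ranked 5 in control and 5 to 6 in both of these groups, so a method that works on ranks can show little change.

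Hsp90ab1 (GRCm38, chr17:45567775-45573271, minus strand) changed less. Its log2 values were 12.85, 12.92 and 12.75 in control, and 12.74, 12.93 and 12.84, then 12.81, 12.68 and 12.70, then 12.21, 12.08 and 12.18 after 2, 4 and 8 h in BMH-21. With CX-5461 they were 12.89, 12.62 and 12.65, then 12.54, 12.78 and 12.58, then 12.70, 12.68 and 12.66. The 8 h libraries of BMH-21 were the only ones well below the controls; those of 8 h in CX-5461 lay just below them. The log2 fold change at 8 h in BMH-21 was -0.68 (limma adjusted p 4.8e-11) and -0.47 after centring, but 0.16, called higher, with quantile normalization (limma adjusted p 0.03). That method works on ranks, and Hsp90ab1 ranked 2 to 4 among 14666 genes in control and 2 after 8 h in BMH-21. Quantile normalization gave 0.10 for Hsp90aa1 in this comparison, without a call, where it ranked 5 in control and 4 to 5 after 8 h in BMH-21. Turns of sign among such ranks say little of the size of a change. The other changes of Hsp90ab1 were -0.01 and -0.11 at 2 h and 4 h in BMH-21 and -0.12, -0.20 and -0.16 in CX-5461, and centring turned those of 2 h and 4 h in BMH-21 and 2 h in CX-5461 to 0.07, 0.04 and 0.03. Of these 5 only that of 4 h in CX-5461 passed the test (limma adjusted p 0.041). This call was lost after centring (-0.05), without CX-5461 4 h replicate 1 or 3, and without control replicate 1 or 2, and its sign turned with median-ratio factors (0.05, without a call) and with quantile normalization (0.16, called higher, limma adjusted p 0.035). At 8 h in CX-5461 centring gave -0.37 and a limma adjusted p of 5.5e-08, and quantile normalization 0.11 without a call. Hsp90aa1 shares 58.5% of its windows with other genes, mostly Gm12346, and Hsp90ab1 4.49%.

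Hspd1 (GRCm38, chr1:55077835-55088243, minus strand) encodes HSP60, which folds proteins inside mitochondria with the Hspe1 product, and it overlaps Hspe1 on the other strand. Its log2 values were 11.01, 10.99 and 10.79 in control. They were 10.74, 10.95 and 10.86, then 10.81, 10.54 and 10.55, then 9.84, 9.71 and 9.83 under BMH-21, and 10.89, 10.64 and 10.74, then 10.37, 10.67 and 10.46, then 10.53, 10.46 and 10.46 under CX-5461. The 8 h libraries of BMH-21 stood apart below all others. Log2 fold changes of Hspd1 were -0.08, -0.30 and -1.14 in BMH-21 (limma adjusted p 0.65, 0.0057 and 9e-21). Those in CX-5461 were -0.17, -0.43 and -0.45 (limma adjusted p 0.16, 5.4e-05 and 5.5e-05). Of its windows 44.8% occur elsewhere, mostly in Hspd1-ps3.

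Hspb1 (GRCm38, chr5:135887919-135889563, plus strand) encodes HSP25, a small chaperone that keeps unfolded proteins soluble. It had the smallest range of group means of the 10 genes, 0.48 as deposited. Its log2 values were 8.43, 8.52 and 8.17 in control, and 8.38, 8.49 and 8.39, then 8.53, 8.28 and 8.52, then 7.96, 7.98 and 7.97 under BMH-21. CX-5461 gave 8.46, 8.17 and 8.33, then 8.06, 8.22 and 8.05, then 8.35, 8.22 and 8.30. The 3 libraries of 8 h in BMH-21 were below every control, with a log2 fold change of -0.40 (limma adjusted p 0.00022). Centring gave -0.19 (limma adjusted p 0.008), median-ratio factors -0.05 without a call, and quantile normalization 0.25 with one (limma adjusted p 0.00087). At 4 h in CX-5461 the change was -0.26 (limma adjusted p 0.019). This call was lost after centring (-0.10), without CX-5461 4 h replicate 1 or 3 and without control replicate 1 or 2, and quantile normalization gave 0.12. The changes at 2 h and 4 h in BMH-21 were 0.05 and 0.07, and the second passed the test after centring, at 0.22 (limma adjusted p 0.0033). Those at 2 h and 8 h in CX-5461 were -0.05 and -0.08 and did not pass as deposited. After centring they were 0.09 without a call and -0.30 with one (limma adjusted p 0.00022), and quantile normalization gave 0.11 and 0.08, neither past the threshold. Of its windows 51.6% are shared with Hsp25-ps1.

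Hsf1 (GRCm38, chr15:76477422-76501913, plus strand), the gene of the heat shock factor itself, was not called higher than control at any time. Its log2 values were 5.92, 5.94 and 5.77 in control, from 2584 to 2841 reads. BMH-21 gave 5.65, 5.86 and 5.82, then 5.65, 5.43 and 5.50, then 5.13, 4.98 and 5.22. CX-5461 gave 5.81, 5.61 and 5.60, then 5.35, 5.59 and 5.40, then 5.83, 5.79 and 5.72. The 4 h libraries of both inhibitors and the 8 h libraries of BMH-21 lay below every control. Hsf1 differed from control by -0.10, -0.35 and -0.77 on the log2 scale in BMH-21 (limma adjusted p 0.6, 0.0031 and 2.8e-10). In CX-5461 the differences were -0.20, -0.43 and -0.09 (limma adjusted p 0.14, 0.00029 and 0.5), and the last was -0.31 after centring (limma adjusted p 1e-07). The amount of its mRNA does not measure the activity of the factor, which is set by trimer formation and phosphorylation.

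**Figure D4:**
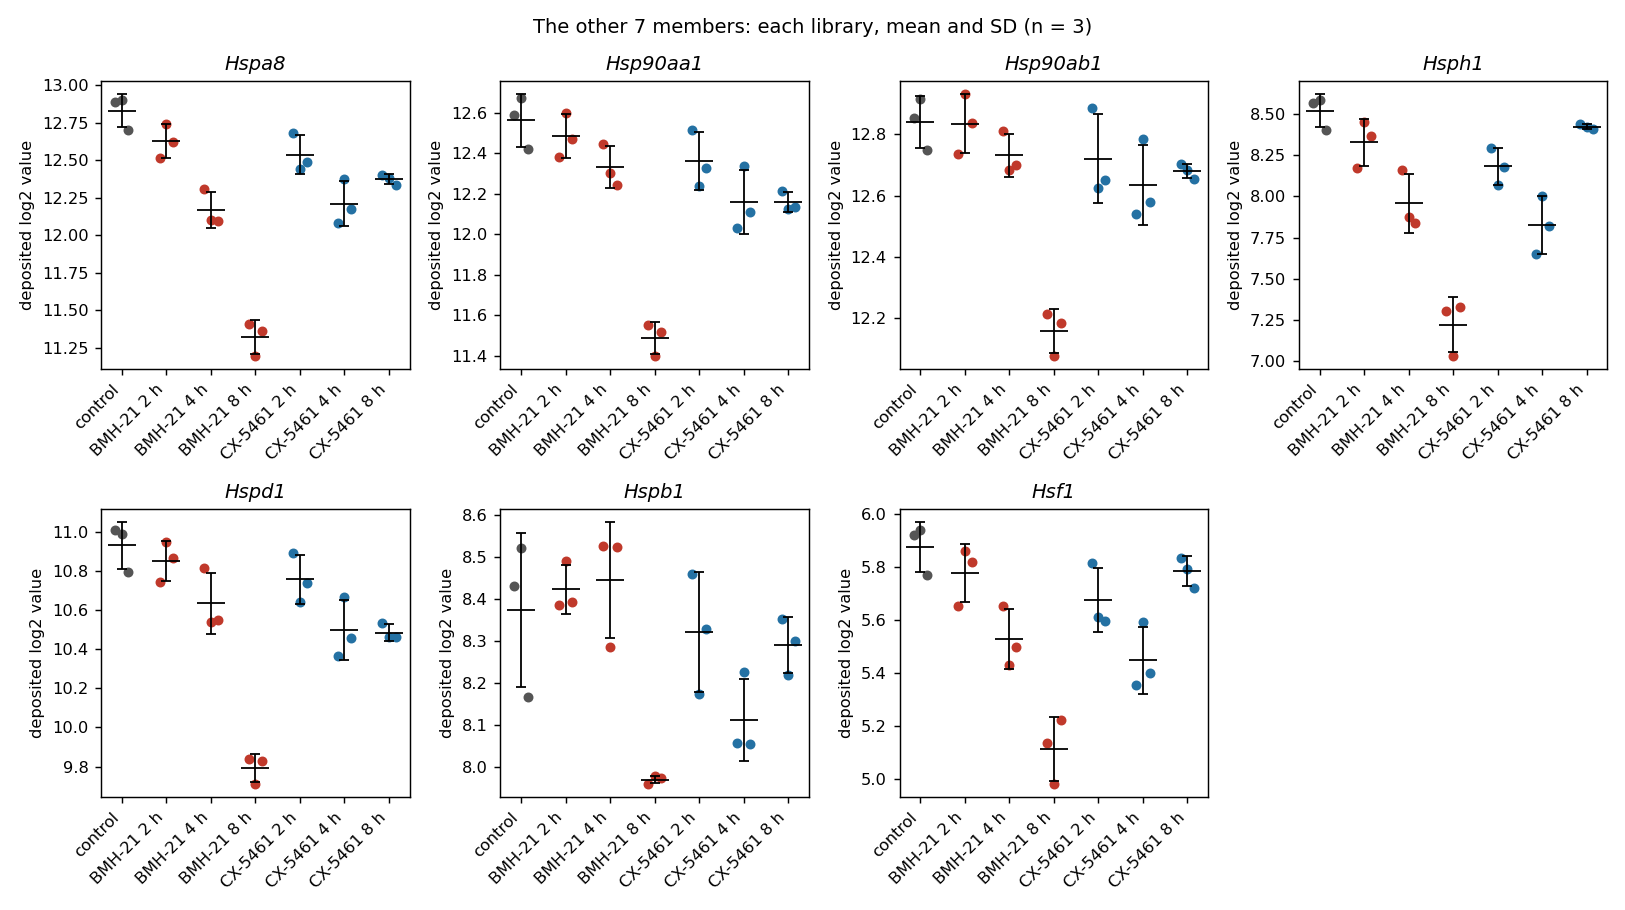
Deposited log2 values of the other 7 genes in each library (points) with the mean and SD of each group (n = 3); the vertical axes do not start at 0. On this deposited scale the 3 libraries of 8 h in BMH-21 lie below the controls in all 7 panels, and those of 8 h in CX-5461 are mixed with the controls for Hsph1, Hspb1 and Hsf1.

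From 4 h to 8 h in BMH-21 all 10 genes fell, against 37.8% of all genes called lower as deposited, and none overlapped between the times, against 39.1% of all genes. With BMH-21 the rise of Hspa1a, Hspa1b and Dnajb1 was thus partly reversed. Hspa1a fell by 0.96, Hspa1b by 0.96 and Dnajb1 by 0.36 on the log2 scale, with limma adjusted p of 4.6e-13, 4.2e-13 and 0.0024. Hspa8 fell by 0.85, Hsp90aa1 by 0.84, Hspd1 by 0.84, Hsph1 by 0.74, Hsp90ab1 by 0.57, Hspb1 by 0.48 and Hsf1 by 0.42. Their largest limma adjusted p was 0.00062, for Hsf1. The median change was -0.79 over the 10 genes and -0.14 over all genes tested, and after centring it was -0.73 and -0.08. The 10 calls held after centring, where 42.2% of all genes were lower, and with median-ratio factors. Quantile normalization left 6 of them, with -0.05 for Dnajb1 and -0.07 for Hspb1 short of the threshold and 0.05 for Hsp90aa1 and 0.06 for Hsp90ab1. Both HSP90 genes ranked within 2 to 5 at 4 h and 8 h, where that method can show little change. None of the 10 was called higher, also at an unadjusted p under 0.05 in limma.

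From 4 h to 8 h in CX-5461 the scaling decided most calls. As deposited 2 genes were higher and 1 lower, against 58.8% and 4.85% of all genes, a comparison in which centring removes a shift of 0.37. Hsph1 rose by 0.60 (limma adjusted p 6.1e-07), by 0.22 after centring (limma adjusted p 2e-05). Hsf1 rose by 0.34 as deposited (limma adjusted p 0.0053), but its value was -0.04 after centring, -0.03 with median-ratio factors and -0.02 with quantile normalization, none past the threshold. Hspa1a fell by 0.31 (limma adjusted p 0.011) and by 0.68 after centring, and the call as deposited was lost without CX-5461 4 h replicate 2 (-0.25, limma adjusted p 0.055). The summed reads of Hspa1a and Hspa1b gave -0.17 without a call (limma adjusted p 0.15). After centring 8 genes were lower and 1 higher, against 32.0% and 25.8% of all genes. Hspa1b and Dnajb1 were then at -0.42 and -0.43, past the threshold, where the deposited values of -0.05 each were not. The difference between the inhibitors in the change from 4 h to 8 h, tested as an interaction term, was lower for BMH-21 in 9 of the 10 genes as deposited, where 61.4% of all genes were. After centring it was in 8 of 10, against 36.2%.

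The inhibitors were set against each other at the same dose and time. BMH-21 is known to intercalate into DNA rich in guanine and cytosine and CX-5461 to stop initiation by RNA polymerase I, and the labels give no structural relation between them. There were 3 such comparisons, with p-values adjusted over all genes within each. At 2 h limma called 0 of the 10 genes, where 2.47% of all genes were called higher and 1.52% lower. At an unadjusted p under 0.05 it gave 1, Dnajb1, at 0.24 (95% confidence interval 0.03 to 0.45, limma adjusted p 0.25). After centring Dnajb1 was called, at 0.17 (limma adjusted p 0.007), where 7.83% of all genes were higher. The differences at 2 h were 0.20 for Hspa1a (95% confidence interval -0.02 to 0.41) and 0.15 for Hspa1b (-0.07 to 0.37), so differences of that size between the inhibitors were not excluded.

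At 4 h Hspa1a, Hspa1b and Dnajb1 were higher under BMH-21 than under CX-5461. The 4 genes called higher and 0 lower compare with 9.35% and 8.49% of all genes. Hspa1a differed by 0.74, Hspa1b by 0.60 and Dnajb1 by 0.65 on the log2 scale (SE 0.11), with limma adjusted p of 6.9e-08, 1.3e-05 and 8.2e-07, and the 3 libraries of BMH-21 lay above those of CX-5461 for each, as for 13.7% of all genes. The fourth was Hspb1, at 0.33 (limma adjusted p 0.013). Its call was lost in 4 of 6 fits that left out 1 library (BMH-21 4 h replicate 1 or 3, CX-5461 4 h replicate 1 or 3). After centring 7 genes were higher, where 27.4% of all genes were, with Hsp90aa1 at 0.16, Hsph1 at 0.12 and Hspd1 at 0.13 added. No gene was lower at an unadjusted p under 0.05 as deposited, while with median-ratio factors Hspa8 was called lower, at -0.11 (limma adjusted p 0.02).

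At 8 h 8 of the 10 genes were lower under BMH-21 than under CX-5461 and 1 was higher, against 67.2% and 12.0% of all genes. Dnajb1 was the higher one, at 0.34 (limma adjusted p 0.0025) and 0.77 after centring. Hsph1 had the largest difference, -1.20 (limma adjusted p 1e-19), followed by Hspa8 at -1.05 (limma adjusted p 4e-19). Hspd1, Hsf1 and Hsp90aa1 differed by -0.69, -0.67 and -0.67. After centring, where 40.6% of all genes were lower and 31.1% higher, these 5 genes were still lower, at -0.77 to -0.24. Quantile normalization, which works on ranks, called Hsp90aa1 higher, at 0.21 (limma adjusted p 0.00089). Its ranks were 4 to 5 under BMH-21 and 5 to 6 under CX-5461, so this call says little of the size of a change. The differences of Hsp90ab1 (-0.52), Hspa1b (-0.32) and Hspb1 (-0.32) did not pass the test after centring, at -0.10, 0.11 and 0.11. With quantile normalization all 3 were above 0, at 0.06, 0.14 and 0.17. With median-ratio factors Hspa1b and Hspb1 were called higher, at 0.15 each. As deposited the Hspa1b call was also lost without BMH-21 8 h replicate 2 (-0.20, limma adjusted p 0.11). Hspa1a differed by 0.09 (95% confidence interval -0.13 to 0.31) and by 0.52 after centring (limma adjusted p 3.4e-07). The summed reads of Hspa1a and Hspa1b differed by -0.11 (limma adjusted p 0.32).

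The other genes of the chaperone network were taken from 9 lists. Their counts stand beside the genes tested as a whole, of which 56.9% were lower and 24.5% higher at 8 h in BMH-21, with a median log2 fold change of -0.40. After centring 51.3% were lower and 33.3% higher there, with a median of -0.19. At 8 h in CX-5461 14.3% of all genes were lower and 35.1% higher as deposited, with a median of 0.11, and 44.7% were lower and 29.3% higher after centring, with a median of -0.11.

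Among the 5 tested heat shock factors and related genes 1 was higher and 3 lower at 8 h in BMH-21, and 3 higher and 0 lower at 8 h in CX-5461, where after centring 1 was higher and 2 lower. Hsf2, which can form mixed trimers with HSF1, fell by 1.20 under BMH-21 (limma adjusted p 2.4e-18). Hsf4, at a control level of only -0.08 ± 0.33 (SD, n = 3), was lower under BMH-21 (-0.83) and higher under CX-5461 (0.97), with limma adjusted p of 0.0022 and 8e-04. Its lower call was lost with median-ratio factors, at -0.48. Hsf5 was at 0.64 after 8 h in CX-5461 (limma adjusted p 0.012) and lost its call after centring. Hsf3 was below the filter.

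Of 7 tested HSP70 relatives 3 were higher and 4 lower at 8 h in BMH-21, and 4 higher and 1 lower under CX-5461. After centring the counts were 3 and 3, and 3 and 2. Hspa2, an HSP70 best known from germ cells, rose by 1.11 under BMH-21 and by 1.25 under CX-5461. It was already higher at 2 h of both, by 0.96 and 0.56, with a largest limma adjusted p of 5e-05. Hspa12a rose by 1.37 and 1.14. Hspa4, an HSP110 relative of Hsph1, fell by 1.22 and 0.53. Hspa12b was below the filter.

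Of 12 J-domain proteins 4 were higher and 8 lower at 8 h in BMH-21, and 4 and 7 under CX-5461, with a list median of -1.14 under BMH-21. Dnajb5, a relative of Dnajb1, rose at every time, by 1.35, 2.31 and 1.89 under BMH-21 and by 1.28, 1.75 and 1.23 under CX-5461, with a largest limma adjusted p of 1.2e-19. Dnaja4 rose by 1.62 and 1.68 at 8 h. Dnajc21, which acts in the maturation of the large ribosomal subunit, fell by 1.80 and 0.53. Dnaja1, another partner of HSP70, fell by 1.44 and 0.32. The J-domain genes thus moved in both directions, as did all genes tested, of which 24.5% were higher and 56.9% lower at 8 h in BMH-21.

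Of 9 exchange factors and partners of HSP70, 1 was higher and 7 lower at 8 h in BMH-21, and 2 and 4 under CX-5461, where centring gave 2 and 7. Bag3, a heat-inducible exchange factor and HSF1 target, was not called higher at any time. Its log2 value of 5.47 ± 0.08 in control was 4.27 ± 0.17 after 4 h and 4.21 ± 0.18 after 8 h in BMH-21 (SD, n = 3). It fell by 1.20 and 1.27 under BMH-21 at 4 h and 8 h and by 1.12 under CX-5461 at 4 h, with limma adjusted p of 3.3e-18, 6.9e-20 and 2.1e-16. At 8 h in CX-5461 it was at 0.08 (limma adjusted p 0.58), but at -0.13, called lower, after centring. Hspbp1 and Bag5 fell by 1.10 and 1.07 under BMH-21 at 8 h.

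All 12 HSP90 co-chaperones tested were lower at 8 h in BMH-21, also after centring and with median-ratio factors, and 7 of 12 were lower at 8 h in CX-5461, 10 after centring. The list median was -0.89 and -0.29. Fkbp5, Ptges3 and Ahsa1, which bind HSP90 at different steps of its ATPase cycle, fell by 1.50, 1.39 and 1.29 under BMH-21. Stip1, which links HSP70 to HSP90, fell by 0.90 under BMH-21 and by 0.33 under CX-5461 at 8 h. All 14 subunits of the cytosolic chaperonin TRiC and of prefoldin, which fold actin and tubulin, were also lower at 8 h in BMH-21, 13 of them with median-ratio factors. With CX-5461 9 were lower, 13 after centring. The largest falls were those of Cct3, Cct6a and Tcp1, by 1.38, 1.30 and 1.27 under BMH-21.

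Of 5 tested genes listed under small heat shock proteins, 3 were higher and 2 lower at 8 h in BMH-21, and 4 and 0 at 8 h in CX-5461, where centring gave 4 and 1. Cryab, the chaperone alpha B crystallin, rose from a log2 value of 1.07 ± 0.18 in control to 4.69 ± 0.10 at 8 h in BMH-21 and 3.42 ± 0.07 at 8 h in CX-5461 (SD, n = 3). Its changes from control were thus 3.62 (limma adjusted p 8.9e-54) and 2.35 (limma adjusted p 4.6e-35). Hspb2 rose by 3.08 and 1.99, from -0.64 ± 0.50 in control (SD, n = 3), and Hspb8 by 1.18 and 0.78. With that control level Hspb2 passed the filter through treated libraries, where it was high. Its place in the count of higher genes is thus a description and not a further test. These 3 genes were highest at 8 h in BMH-21, while Hspa1a, Hspa1b and Dnajb1 were highest at 4 h. Hspb3, Hspb7, Hspb9 and Cryaa were below the filter.

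Of 11 mitochondrial chaperones and proteases 2 were higher and 9 lower at 8 h in BMH-21, and 3 and 1 under CX-5461, where centring gave 2 and 8. In BMH-21 centring left 7 lower and median-ratio factors 4. The list median there was -0.38 as deposited, near the -0.40 of all genes tested. Hspa9, the mitochondrial HSP70, fell by 0.97 and 0.42. Hspe1, the partner of Hspd1, was at -0.49 after 8 h in BMH-21 (limma adjusted p 8.9e-06), a call lost with median-ratio factors (-0.13), and at -0.10 after 8 h in CX-5461. Clpb and Dnaja3 rose, by 0.79 and 0.74 under BMH-21 and by 0.49 and 0.38 under CX-5461. Of 7 other heat-inducible genes 2 were higher and 4 lower at 8 h in BMH-21, and 4 and 0 under CX-5461, where centring gave 2 and 1. Serpinh1, the collagen chaperone of the endoplasmic reticulum, rose by 0.96 and 0.74. Ubb, a polyubiquitin gene, fell by 0.55 under BMH-21. Rgs2, at a control level of -0.09 ± 0.16 (SD, n = 3), fell by 1.24.

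**Figure D5:**
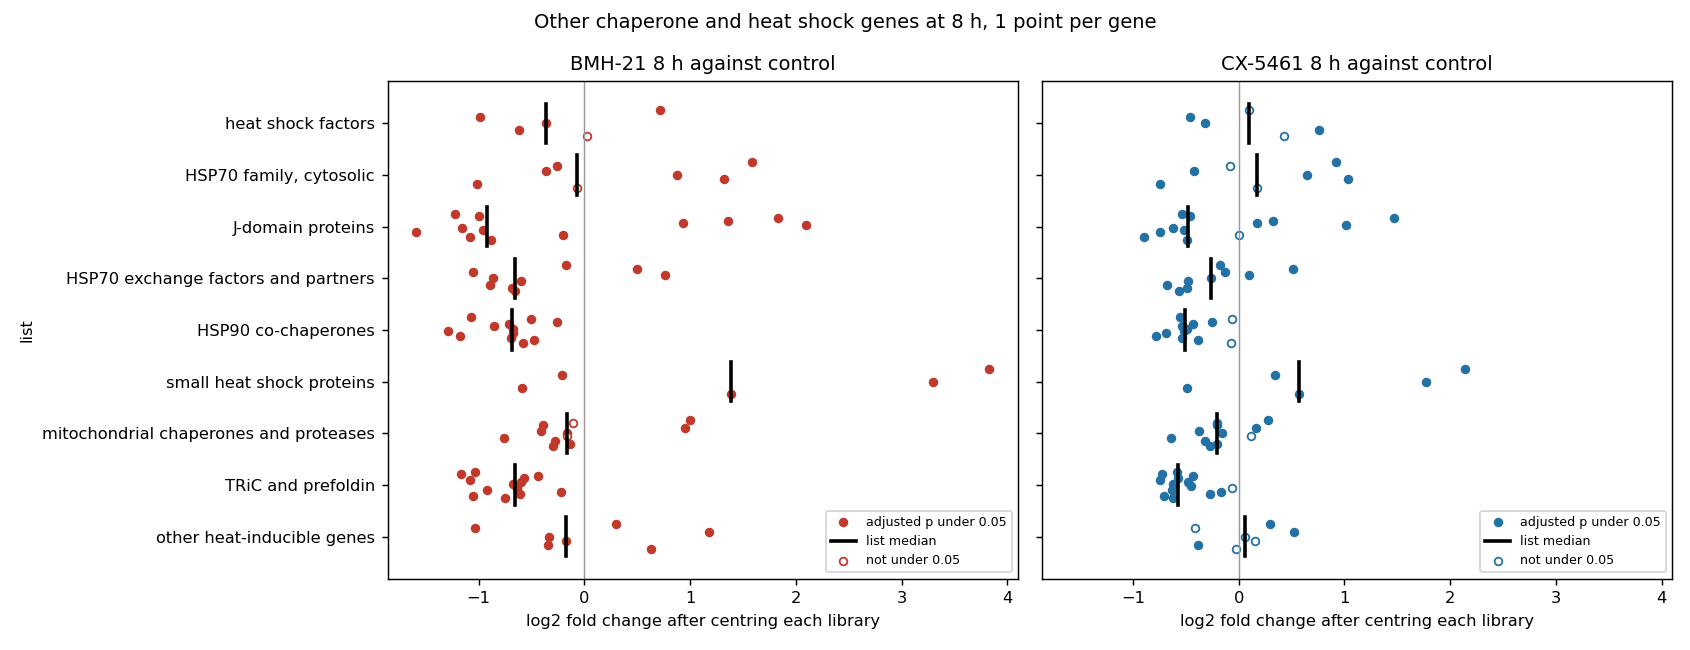
Log2 fold change at 8 h after centring (horizontal axis) of each tested gene of the 9 lists, left for BMH-21 and right for CX-5461; filled points had an adjusted p under 0.05 and the black line is the list median. Every point of the HSP90 co-chaperones and of TRiC and prefoldin lies below 0 under BMH-21, and Cryab and Hspb2 are the 2 points farthest to the right.

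Apart from the ranks by value given above, levels were compared between genes per kilobase of the longest coding transcript. In control the mean log2 value per kilobase was 11.57 for Hspa8, 11.51 for Hsp90ab1, 10.85 for Hsp90aa1 and 9.65 for Hspd1. It was 8.48 for Hspb1, 6.59 for Hsph1, 4.80 for Hsf1 and 4.69 for Dnajb1, and 2.64 for Hspa1b and 2.13 for Hspa1a. The ranges of the control libraries overlapped for Hspa8 and Hsp90ab1 and for Hsf1 and Dnajb1, and no other neighbours in this order overlapped. The order of Hspa1a and Hspa1b rests on a split of reads that is not certain.

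Over the 21 centred libraries Hspa1a and Hspa1b had a Pearson r of 0.99 with each other, and 0.92 and 0.88 with Dnajb1. Hsp90aa1 and Hspd1 had 0.99, Hsf1 and Hspa8 0.97, and Dnajb1 and Hsph1 -0.66. These values describe libraries that share 7 groups, and the r of Hspa1a with Hspa1b includes the reads they share. The range of centred group means was largest for Hspa1a, Hspa1b and Dnajb1, at 2.60, 1.99 and 1.47. Among 9770 other genes with a mean log2 value of at least 3, those most like Hspa1a over the 21 libraries were Foxj1 (Pearson r 0.98), Fam110a (0.97) and Trim11 (0.97). Those most like Hspa1b were Sfswap (0.97), Foxj1 (0.96) and Pgpep1 (0.95), and those most like Dnajb1 were Abcb1a (0.99), Tysnd1 (0.98) and Carhsp1 (0.98). No p-value belongs to these r values, as they are the highest of many, and r does not compare the size of a change. Sfswap had a range of centred group means of 0.52 and Foxj1 one of 3.90, against 1.99 for Hspa1b.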

How the data were processed

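Poly(A) RNA of 21 samples of E14 cells, 3 in each of 7 groups, was sequenced with a directional kit. The authors deposited log2 expression values, and the values themselves are log2 of reads plus 0.5 over a scaled library size. Per the submitters' processing notes, Trim Galore 0.5.0, TopHat2 2.1.1, R 4.0.5, DESeq2 1.30.1, edgeR 3.32.1, limma 3.46.0 and the mm10 build were used. The counting program and read length are not given in the sources used here.

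The smallest value of each library is that of 0 reads, so reads could be recovered, whole within 1.7e-08. The libraries' deposited scaling factors ran from 0.832 to 1.375, against 0.941 to 1.107 for median-ratio factors of the recovered reads. The origin of the deposited factors was not tested.

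Genes with a log2 value above 0 in at least 3 libraries (14666 of 20900) were fitted with limma 3.58.1 in R 4.3.3, with 1 mean per group over all 21 libraries, a variance trend over mean level and p-values adjusted by Benjamini-Hochberg (threshold 0.05, two-sided). Alternatives were centring on the library median, median-ratio factors, quantile normalization, other filters, an offset of 5 reads, voom weights, other variance settings, a replicate block, the reads of Hspa1a and Hspa1b summed, and leaving out each library. The method was tested on simulated data in which few genes changed, every gene had the same spread and the library scaling was exact. That simulation does not bear on the dependence of the calls on the scaling. Leaving out each library after centring was chosen after seeing the data.

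All 10 genes are named. From each list the text names up to 3 genes with the largest change at 8 h past the threshold, and Bag3, Hspe1, Dnaja1 and Stip1 in any case. The like genes are the 3 with the highest Pearson r to each of the 3 genes of widest range. The genes and lists were chosen with earlier results of these data known. Gene positions are those of the GENCODE M21 annotation, and promoters are from RefSeq.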

Additional observations from a re-analysis of the deposited data

Results flagged for a closer look

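The change from 4 h to 8 h differed between the inhibitors for 8 of the 10 genes, by a test of the difference itself (an interaction term in limma, adjusted over all genes) that passed both as deposited and after centring. Of all genes tested, 61.4% passed with a lower value for BMH-21 as deposited and 36.2% after centring, so a single such call does not set a gene apart. The value is the log2 change with BMH-21 minus that with CX-5461. It was -1.33 for Hsph1 (limma adjusted p 2e-13), the one gene of these that rose with CX-5461 and fell with BMH-21 on both scales. It was -1.01 for Hspa8 (1.5e-10), -0.92 for Hspa1b (3e-07), -0.84 for Hsp90aa1 (4.7e-08) and -0.83 for Hspd1 (1.7e-07). It was -0.75 for Hsf1 (1.2e-05), -0.65 for Hspb1 (5e-05) and -0.62 for Hsp90ab1 (2e-05).

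After centring the differences were smaller, from -0.90 for Hsph1 and -0.58 for Hspa8 to -0.22 for Hspb1 (limma adjusted p 0.04) and -0.18 for Hsp90ab1 (limma adjusted p 0.013). With median-ratio factors those of Hspb1 (-0.11) and Hsp90ab1 (-0.08) did not pass. Hspa1a differed by -0.65 as deposited (limma adjusted p 0.00017) and by -0.21 after centring (limma adjusted p 0.06). Dnajb1 was at -0.31 as deposited (limma adjusted p 0.06) and 0.13 after centring (limma adjusted p 0.062), and only median-ratio factors gave a call, of the opposite sign (0.23, limma adjusted p 0.0018). No sample was tested for standing apart within its group, since each group has 3.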

How the results depend on the processing

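Of the 110 values of the 10 genes, 80 kept their direction and side of the threshold after centring, 75 with median-ratio factors and 70 with quantile normalization. Between 106 and 110 did so under each of the other filters, offset, weights and variance settings. The cause of the dependence on the scaling was not tested. The sign turned as follows.

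After centring the values against control were 0.071 at 2 h and 0.041 at 4 h of BMH-21 and 0.028 at 2 h of CX-5461 for Hsp90ab1, and 0.095 at 2 h of CX-5461 for Hspb1. BMH-21 against CX-5461 at 8 h gave 0.11 for Hspa1b and 0.11 for Hspb1. From 4 h to 8 h of CX-5461 Hsf1 was at -0.038, Hsp90ab1 at -0.33, Hspa8 at -0.21 and Hspb1 at -0.20.

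With median-ratio factors the values at 2 h of BMH-21 were 0.0047 for Hsp90aa1, 0.078 for Hsp90ab1 and 0.0044 for Hspd1, and at 4 h 0.075 for Hsp90ab1. At 2 h of CX-5461 they were 0.064 for Hsp90ab1, 0.13 for Hspb1 and 0.010 for Hspd1, and at 4 h 0.045 for Hsp90ab1. BMH-21 against CX-5461 gave -0.011 for Hspa8 and -0.0058 for Hspd1 at 2 h, and 0.15 for Hspa1b and 0.15 for Hspb1 at 8 h. For 8 h against 4 h of CX-5461 Hsf1 was at -0.029, Hsp90ab1 at -0.32, Hspa8 at -0.20 and Hspb1 at -0.19.

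With quantile normalization Hsp90ab1 was at 0.11, 0.11 and 0.16 at 2, 4 and 8 h of BMH-21 and at 0.11, 0.16 and 0.11 with CX-5461. Hsp90aa1 was at 0.050 and 0.10 at 4 h and 8 h of BMH-21. Both HSP90 genes stayed within ranks 2 to 6 of 14666 in every group, so their values could move only between a few steps. Hspb1 was at 0.25 at 8 h of BMH-21 and at 0.11, 0.12 and 0.082 at 2, 4 and 8 h of CX-5461, and Hsph1 at 0.093 at 8 h of CX-5461. BMH-21 against CX-5461 gave -0.030 for Hspd1 at 2 h, and -0.057 for Hsp90ab1 and -0.031 for Hspd1 at 4 h. At 8 h it gave 0.21 for Hsp90aa1, 0.057 for Hsp90ab1, 0.14 for Hspa1b and 0.17 for Hspb1. From 4 h to 8 h Hsp90aa1 was at 0.050 and Hsp90ab1 at 0.057 with BMH-21, and Hsf1 at -0.018, Hsp90ab1 at -0.057, Hspa8 at -0.0014 and Hspb1 at -0.034 with CX-5461.

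Voom weights gave 0.0015 for Hsp90aa1 from 4 h to 8 h of CX-5461. The summed reads of Hspa1a and Hspa1b gave -0.11 for BMH-21 against CX-5461 at 8 h.

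The count of the 10 genes called at 2 h of BMH-21 became 5 after centring and 5 with median-ratio factors, and 10 for each at 8 h of CX-5461. After centring 18.6% of all genes were higher and 17.5% lower in the first, and 29.3% and 44.7% in the second. For BMH-21 against CX-5461 the count of the 10 became 1 with each of the 3 scalings at 2 h and 7 after centring at 4 h. For 8 h against 4 h of CX-5461 it was 9 after centring, 9 with median-ratio factors and 5 with quantile normalization, and from 4 h to 8 h of BMH-21 it was 6 with quantile normalization. From 4 h to 8 h of CX-5461 25.8% of all genes were higher and 32.0% lower after centring. The shares under quantile normalization are not given here, so these counts do not set the 10 genes apart. The count over all genes at 2 h of BMH-21 was 2891 as deposited and 5285, 5243 and 4872 after centring, with median-ratio factors and with quantile normalization. For BMH-21 against CX-5461 these were 585, then 2261, 2208 and 1910 at 2 h, and 2617, then 6719, 6116 and 5991 at 4 h.

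Leaving out 1 library at a time, 612 of 660 values of the 10 genes kept their direction and side, and after centring 643 of 660. The count over all genes ranged from 2370 (without CX-5461 2 h replicate 2) to 5592 (without replicate 1) at 2 h of CX-5461, where 3 to 6 of the 10 genes were called. For BMH-21 against CX-5461 it ranged from 361 to 653 at 2 h and from 1687 to 2931 at 4 h. Values that turned in sign ranged from -0.053 to 0.044 for Hsp90ab1 and from -0.053 to 0.12 for Hspb1 at 2 h of BMH-21, and from -0.031 to 0.15 for Hspb1 at 4 h. Hspb1 ranged from -0.16 to 0.022 at 2 h of CX-5461, and Hspa8 from -0.11 to 0.042 for BMH-21 against CX-5461 at 4 h. For 8 h against 4 h of CX-5461 the ranges were -0.065 to 0.088 for Hsp90aa1, -0.076 to 0.074 for Hspd1, -0.0016 to 0.12 for Hsp90ab1, -0.089 to 0.0033 for Hspa1b and -0.091 to 0.0015 for Dnajb1.

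Samples with the same replicate number did not deviate together: their correlations ran from -0.25 to 0.093, with 0 of 33 above 0.1 and 11 of 33 highest with their own number. With the replicate number as a block, all 110 values kept their direction and side. Depth was not a limit, as the lowest count of any of the 10 genes was 565 reads.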
